A study of Mus musculus with 12 samples.

Results

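Bex1 (brain expressed X-linked 1, gene identifier 19716, also known as Rex3) is represented here by 1 of the 45101 probe sets of the array, 1448595_A_AT, and was chosen because its mean signal was raised more in tumors over adjacent normal lung than that of any other probe set. The values that chose it are given below as a description. The study asked how gene expression differs between lung adenocarcinomas of cyclin E transgenic mice and normal lung, on 12 Affymetrix mouse genome arrays, where several short probes together give the signal of a transcript. Its 3 groups held 4 arrays each: adenocarcinomas of FVB mice in which the human surfactant protein C promoter, active in alveolar type II cells, drives wild-type human cyclin E, histologically normal lung beside tumors in mice of that transgenic line, and lung of non-transgenic FVB mice. All mice were labelled male and were 7 to 11 months of age, and both tumor and adjacent normal lung carry the transgene. The unit is the log2 signal after the authors' background correction and normalization, so that a difference of 1 is a 2-fold difference. The table holds no detection calls. Its median, 4.18, serves as a landmark below which a value was not shown to be above background.

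Bex genes encode small, largely disordered proteins and lie, with the related Tceal genes, in a cluster of placental mammals on the X chromosome. In rodents the Bex1 protein binds the intracellular part of the neurotrophin receptor Ngfr and the calcium sensor calmodulin, and it is known from the nervous system and from regenerating skeletal muscle. In human glioma the gene is known as a target of silencing by promoter methylation.

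RefSeq lists 5 mouse Bex genes, of which 4 are on the X chromosome and Bex6 is on chromosome 16. Ordered by start, the protein-coding genes directly before Bex1 on the X chromosome are Tceal8 and Tceal5. Those after it are the predicted gene LOC115489115, Tceal7, Tceal9 and Bex3. Names of Bex genes have moved between genes, since Bex4 is an older name of Bex1 and Bex1 is an older name of the gene now called Bex2. The start of Bex1 is nearly the same sequence as the start of Bex4, which runs on the opposite strand. Both are shown for this likeness. It lies mostly before the start, in sequence that is not part of the transcript, so that it does not show whether the Bex1 probes also read Bex4. Each window holds 250 bases before and 50 bases after the annotated start, read 5′ to 3′ along the gene from RefSeq on GRCm38.p6, at chrX:136215464-136215763 on the minus strand for Bex1 and chrX:136138746-136139045 on the plus strand for Bex4. Capitals mark the longest run that both windows share.
Bex1: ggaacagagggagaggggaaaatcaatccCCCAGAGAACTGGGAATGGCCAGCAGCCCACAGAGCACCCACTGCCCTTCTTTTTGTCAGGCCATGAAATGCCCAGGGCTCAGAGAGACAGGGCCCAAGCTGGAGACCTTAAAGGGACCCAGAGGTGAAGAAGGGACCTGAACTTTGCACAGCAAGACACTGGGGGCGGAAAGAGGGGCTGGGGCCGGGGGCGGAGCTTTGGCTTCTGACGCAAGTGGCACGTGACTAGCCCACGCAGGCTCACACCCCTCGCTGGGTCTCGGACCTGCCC
Bex4: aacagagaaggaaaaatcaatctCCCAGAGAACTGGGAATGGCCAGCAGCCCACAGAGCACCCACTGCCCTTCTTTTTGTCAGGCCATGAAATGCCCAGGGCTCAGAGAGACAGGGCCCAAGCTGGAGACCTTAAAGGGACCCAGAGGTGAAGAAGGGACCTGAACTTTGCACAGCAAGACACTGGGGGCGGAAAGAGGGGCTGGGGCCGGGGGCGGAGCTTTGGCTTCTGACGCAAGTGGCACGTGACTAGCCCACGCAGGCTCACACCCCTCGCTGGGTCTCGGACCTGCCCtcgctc
The shared run is 271 bases long. In a local alignment 287 of 290 aligned bases were the same (98.97%), with 3 mismatches and no gap, and the run goes through the annotated start into the transcribed part, where it takes in all 50 bases of the Bex1 window after the start. Bex2 and Bex3 form a like pair, with 197 of 199 aligned bases the same. Between the pairs the best local alignment covered 31 columns. The Bex1 window held the GC box GGGCGG 2 times and the E-box CACGTG 1 time, counted on both strands, and so did that of Bex4. Of the 32851 RefSeq windows of this length, 35.7% held the GC box and 7.15% the E-box. The CCAAT box and the TATA box TATAAA were not found in these letters in either window, against 37.4% and 13.6% of all windows. Matches of this kind describe the sequence and are not evidence of binding. The probe sequences and the rest of the transcripts were not used here, so that a part of Bex4 in the signal was not tested.

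Bex1 was high in every tumor and far lower in every normal lung. The log2 signal was 10.45, 9.98, 10.68 and 10.42 in tumors 1 to 4. It was 3.71, 4.70, 3.81 and 5.97 in adjacent normal lungs 1 to 4. It was 3.21, 4.21, 3.73 and 3.91 in non-transgenic lungs 1 to 4. All 4 tumors lay above all 8 lungs, and the groups of normal lung overlapped. On the linear scale the tumors read 1009 to 1640, adjacent normal lungs 13.1 to 62.9 and non-transgenic lungs 9.28 to 18.6. All 4 tumors, 2 of 4 adjacent normal lungs (2 and 4) and 1 of 4 non-transgenic lungs (2) were above the median of the table. In bulk tissue, more cells that express a gene and more RNA per cell cannot be told apart.

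**Figure D1:**
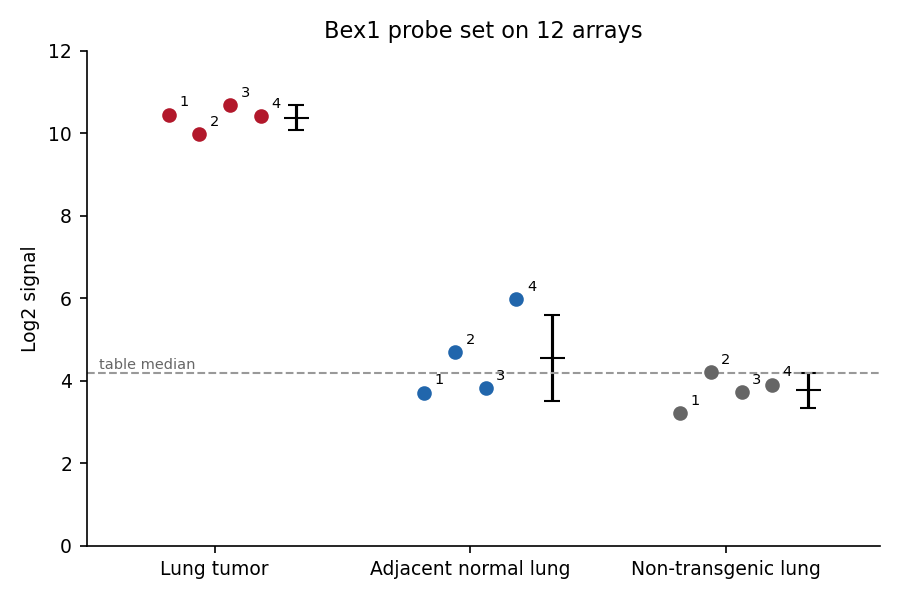
Log2 signal of the Bex1 probe set (vertical axis) in lung tumors, adjacent normal lungs and non-transgenic lungs, with 1 point per array labelled by its number, the mean and SD of 4 arrays as bars, and the median of the table (4.18) as a dashed line. The tumors sit between 9.98 and 10.68, and the highest lung, adjacent normal lung 4, is at 5.97.

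Tumors averaged 10.38 ± 0.29, adjacent normal lungs 4.55 ± 1.05 and non-transgenic lungs 3.77 ± 0.42 (SD, n = 4 each). The difference was 5.83 between tumors and adjacent normal lung (standard error 0.54 from the spread of the 2 groups), a ratio of 56.9. Between tumors and non-transgenic lung it was 6.61 (standard error 0.26), a ratio of 98.0. No test is given for either, since Bex1 was chosen on the tumor arrays, and both comparisons use the same tumors. Most lungs lay below the median of the table, so that these ratios rest on values near background. With every value below that median raised to it, the differences were 5.62 and 6.19. Bex1 passed the filter on low values (above the median in at least 4 arrays) only through its tumors.

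Each tumor was also set against the adjacent normal lung that bears its number, which the sample descriptions appear to tie to 1 mouse. These pairs differed by 6.74, 5.28, 6.86 and 4.44 for numbers 1 to 4. Lungs 2 and 4 were above the median of the table, and against them the ratios were 38.8 and 21.7. Lungs 1 and 3 were below it, and with both raised to the median the ratios were 77.1 and 90.5. Their spread came mainly from the adjacent normal lungs, whose SD was 1.05 against 0.29 for tumors.

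Bex1 stood apart from the other probe sets in how far its arrays were separated as well as in its mean. The lowest tumor was 4.00 log2 units above the highest of the 8 lungs. The next largest separation of this kind in the table was 1.79. In 1644 of the 23538 probe sets tested, or 6.98%, all 4 tumors lay above all 8 lungs, by a median of 0.13, and 16 were separated by more than 1 log2 unit, Bex1 included. Against adjacent normal lung alone 2450 probe sets (10.4%) had all 4 tumors above the 4 lungs. The second largest mean rise against adjacent normal lung was 4.32, in probe set 1417231_AT, where tumors averaged 9.05 ± 1.62 and adjacent normal lungs 4.73 ± 0.84 (SD, n = 4 each). Its lowest tumor was 1.11 above the highest lung. Against non-transgenic lung the second largest rise was 6.18, close behind the 6.61 of Bex1. The rise against adjacent normal lung was the largest in the table under the 11 other settings that enter it (each tumor or adjacent array left out, a floor at the median, quantile normalization and median centring). Against non-transgenic lung it was the largest under 10 of 11 such settings and the second without tumor 4, where the largest was 7.77. These ranks follow from the choice of Bex1 and describe it.

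**Figure D2:**
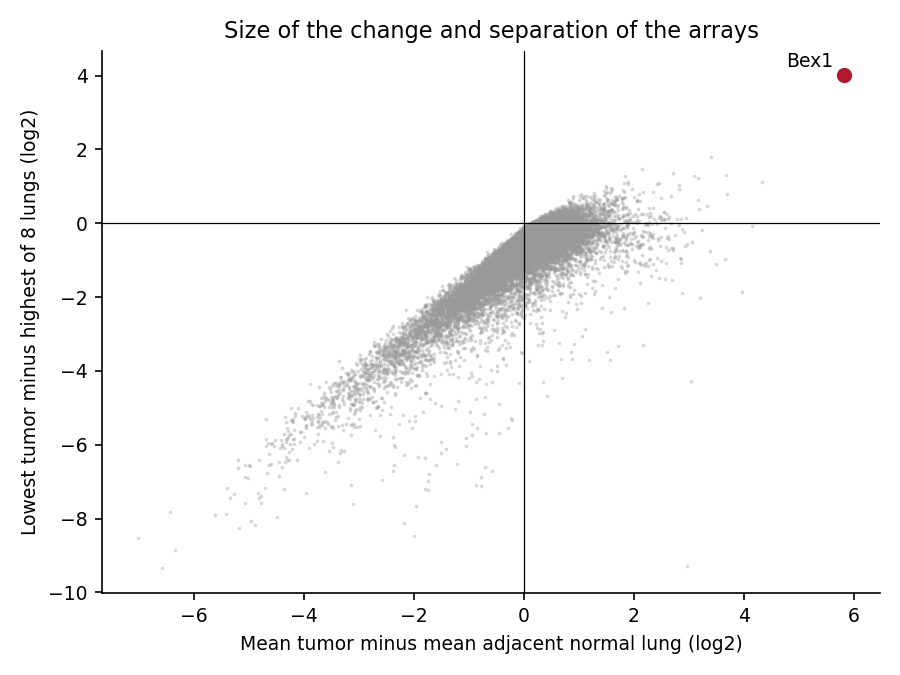
Mean of tumors minus mean of adjacent normal lungs (horizontal axis, log2) against the lowest tumor minus the highest of the 8 lungs (vertical axis, log2) for the 23538 probe sets tested, 1 point each. Above 0 on the vertical axis all 4 tumors exceed all 8 lungs, and Bex1 lies at 5.83 and 4.00.

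On the log2 scale tumor 2 read Bex1 almost as high as the other tumors, which was not the case for most other large rises. Its rise over the mean of adjacent normal lung was 91.0% of the mean rise of the other 3 tumors. On the linear scale it read 1009, against 1367 to 1640 in the other tumors. A given log2 shortfall is a smaller percentage of a larger rise, and the rise of Bex1 was the largest. The percentages were not computed on the linear scale. For the 57 other probe sets that were at least 4-fold higher in tumors than in adjacent normal lung and in which all 4 tumors lay above all 8 lungs, tumor 2 reached a median of 37.5% (quartiles 23.8% and 55.0%). In 3 of the 57 its percentage was higher than in Bex1. Tumor 2 was the lowest tumor in 54 of the 57, and in Bex1 as well. For tumors 1, 3 and 4 the percentage was 102%, 107% and 101% in Bex1, against medians of 119%, 126% and 141% in the 57. The SD of Bex1 among tumors, 0.29, was close to the median SD of all probe sets tested, 0.31. All of these probe sets were chosen on the tumors compared, and a large mean over 4 tumors favours a gene that is high in all of them, so that no test is given. Without tumor 2 the difference between tumors and adjacent normal lung was 5.96.

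**Figure D3:**
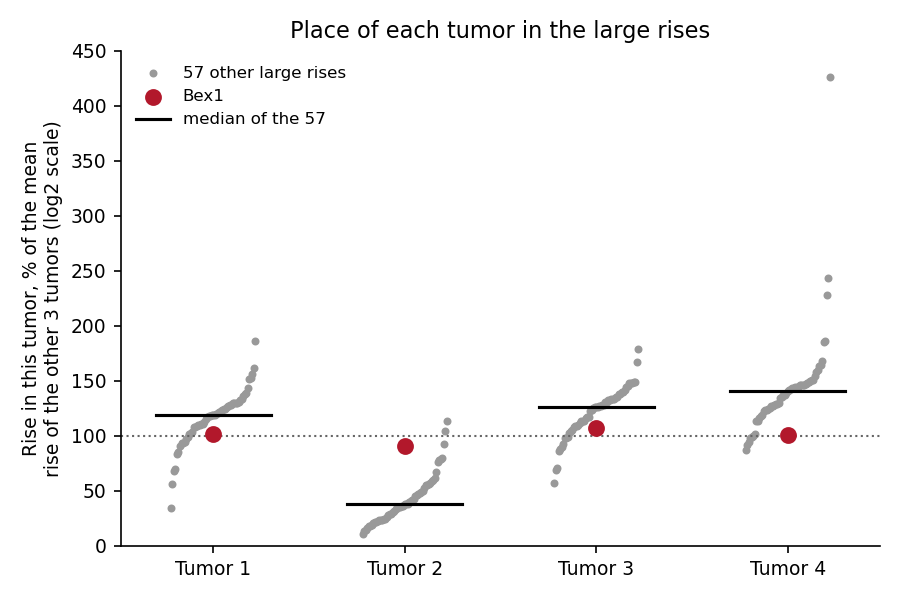
Rise of each tumor over the mean of adjacent normal lung as a percentage of the mean rise of the other 3 tumors (vertical axis, computed on the log2 scale), for Bex1 (large points), the 57 other large rises (small points, sorted within each tumor) and their median (bars). In tumor 2 Bex1 is at 91.0% and the median of the 57 at 37.5%.

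The comparison of adjacent normal with non-transgenic lung asks whether the gene differs in transgenic lung outside tumors. The mean of Bex1 was 0.78 log2 units higher in adjacent normal lung, a ratio of 1.72 that rests on values near background. Its standard error was 0.56 from the spread of the 2 groups and 0.42 from the limma fit, which also draws on the tumors. The adjacent normal arrays also entered the contrast that chose Bex1, and only 3 of the 8 lungs were above the median of the table, so that its tumors alone brought it past the filter on low values. The limma adjusted p of 1.0 over the 23538 probe sets is therefore no independent test of Bex1, and nothing is read from it. In this comparison limma called 0 probe sets (0%), with 835 at an unadjusted p under 0.05.

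Adjacent normal lungs 2 and 4 lay above all non-transgenic lungs, and lungs 1 and 3 lay within their range. The SD of Bex1 among adjacent normal lungs was larger than that of 97.8% of the probe sets tested. Among non-transgenic lungs it was larger than that of 92.4%, so that a large spread was not particular to the adjacent group. Lung 4 carried most of the difference, which was 0.31 without it. It lay 1.28 above the next lung, a margin that was reached in 3 probe sets on this array, Bex1 included. In the other adjacent normal lungs 0 to 10 probe sets reached it, and in non-transgenic lungs 0 to 61, with the 61 in lung 1. As a sign of RNA quality, the excess of 3′ over 5′ signal, averaged over the controls for Gapdh and beta-actin, was 0.57 in lung 4. Its range was 0.30 to 0.61 among tumors, 0.39 to 0.57 among adjacent normal lungs and 0.35 to 0.49 among non-transgenic lungs.

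Other probe sets that are high in tumors were also raised in adjacent normal lung 4. For each lung, the probe sets at least 4-fold higher in tumors than in the other 7 lungs, with no overlap, were taken without Bex1 and without use of the lung itself, which gave 59 to 73 probe sets. The excess of a lung over the other lungs was then expressed on the linear scale as a percentage of the excess of tumors. In adjacent normal lung 4 the median was 7.44% (quartiles 3.01% and 10.3%) and Bex1 was at 3.53%. In adjacent normal lungs 1 to 3 the medians were -3.53%, 1.07% and 1.87% and Bex1 was at -0.72%, 0.38% and -0.64%. In non-transgenic lung 1 the median was 3.89% (quartiles 0.68% and 13.3%), with the upper quartile above that of adjacent normal lung 4. Bex1 was at -1.05% there, the lowest of the 8 lungs. In non-transgenic lungs 2 to 4 the medians were -3.19% to -2.57% and Bex1 was at -0.71% to -0.25%. In lung 4 of the adjacent group 34 of 73 probe sets (46.6%) were above all other lungs, and in non-transgenic lung 1, from a mouse without the transgene, 27 of 72 (37.5%). Over all probe sets tested, adjacent normal lung 4 was the highest lung in 10.5% and non-transgenic lung 1 in 14.3%, within a range of 6.37% to 26.0% over the 8 lungs. The part of tumor tissue in the Bex1 signal of adjacent normal lung 4 was not tested.

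**Figure D4:**
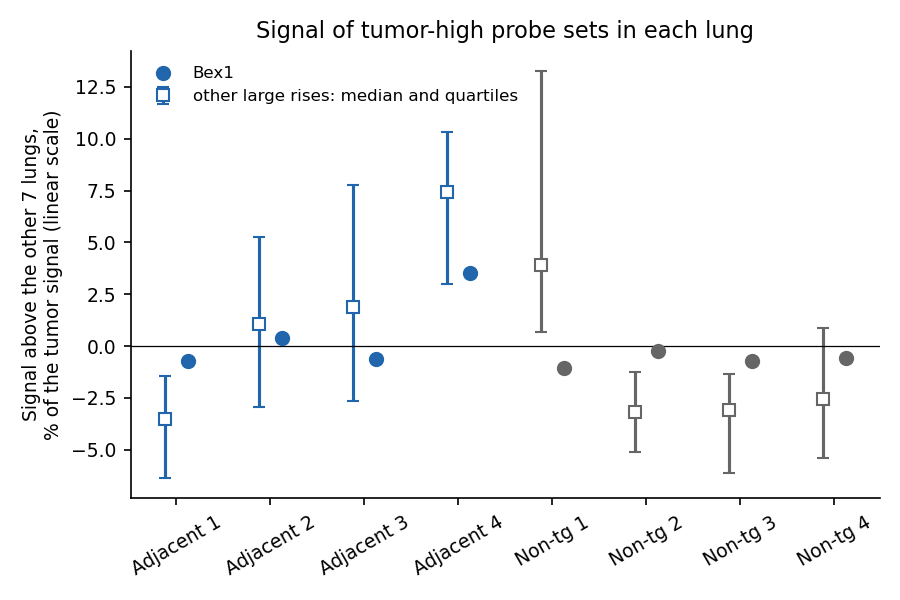
Signal of each lung above the mean of the other 7, as a percentage of the tumor signal above that mean (vertical axis, linear scale), for Bex1 (filled points) and for 59 to 73 other probe sets high in tumors (open squares with quartiles), in adjacent normal and non-transgenic (Non-tg) lungs 1 to 4. Adjacent normal lung 4 has the highest Bex1 value, 3.53%, and the highest median, 7.44%, and non-transgenic lung 1 has the highest upper quartile.

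The probe sets most like Bex1 were those with a step between normal lung and all 4 tumors. Over the 12 arrays, Pearson's r with Bex1 was at least 0.9 in 284 of the 23537 other probe sets tested and at most -0.9 in 940. These values describe the arrays, which share the step between tumor and lung, and probe sets are not independent of each other. The 10 highest values were 0.955 to 0.966. These 10 rose by 0.66 to 2.14, far less than the 5.83 of Bex1. The closest was 1423927_AT (r = 0.966), where tumors averaged 7.27 ± 0.13, adjacent normal lungs 6.61 ± 0.10 and non-transgenic lungs 6.56 ± 0.05 (SD, n = 4 each). With the mean of each group removed, r between this probe set and Bex1 was 0.35, and over the 10 it was 0.11 to 0.61. Its highest lung was adjacent normal lung 2, at 6.69, with adjacent normal lung 4 at 6.65. The next was 1429758_AT (r = 0.963), whose highest lung was adjacent normal lung 4, at 6.62 against 6.18 to 6.36 in the other lungs. Adjacent normal lung 4 is the highest lung in Bex1, so that a choice by r with Bex1 favours such a value.

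The closest opposite patterns had a larger absolute r than the closest parallel ones. Their steps were also larger, since the 10 probe sets of lowest r differed by -3.73 to -1.98 between tumors and adjacent normal lung. The lowest r was -0.985, in 1419616_AT, and -0.62 with the mean of each group removed. The log2 signal of 1419616_AT averaged 4.72 ± 0.20 over tumors, 7.13 ± 0.38 over adjacent normal lungs and 7.38 ± 0.23 over non-transgenic lungs (SD, n = 4 each). Its lowest lung was adjacent normal lung 4, at 6.63. In 1439147_AT (r = -0.984) tumors averaged 3.97 ± 0.21, adjacent normal lungs 5.95 ± 0.28 and non-transgenic lungs 6.30 ± 0.24 (SD, n = 4 each). The lowest lung was adjacent normal lung 4, at 5.62. The choice by r with Bex1 favours a low value of that lung in both probe sets, so that nothing is read from it. The files used here do not pair these probe sets with genes.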

How the data were processed

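The authors deposited log2 signals of 45101 probe sets on 12 arrays, 1 array per sample, from 1.50 to 14.51 and with array medians of 4.10 to 4.38. The paper names Robust Multichip Average and the submitters' processing notes name GCRMA (version not given in the sources used here). Which of them made the table could not be told from its values. The gene of the Bex1 probe set was given with the request. No table used here pairs the other probe sets with genes, so the lists of Bex and Tceal relatives, neurotrophin, binding-partner, fetal and cell type genes were not analysed and the tissue labels were not checked against marker genes. The rule for named genes, the 10 probe sets most correlated with Bex1, therefore gave identifiers, of which the first 2 on each side are printed. Members and lists were chosen with earlier results of these data known.

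Groups and numbers came from the sample titles. After 64 control probe sets were set aside, the 23538 with a log2 signal above 4.18 in at least 4 arrays were fitted with limma 3.58.1 in R 4.3.3, with 3 groups and no block, and p-values were Benjamini-Hochberg adjusted at 0.05. The script was tested on simulated data. The highest correlation between arrays was 0.994 and no 2 were identical. The series text describes tumor and adjacent normal tissue from the same mice, the paper independent samples. Deviations of same-numbered tumor and adjacent lung correlated by -0.03, 0.10, 0.07 and 0.11. The limma p-values set a difference against the spread between arrays, pooled over the 3 groups, with the arrays treated as independent. The number of arrays limits the precision. Promoter windows were aligned with Biopython 1.88 (local alignment). The linear shares, the place of each tumor and the promoter windows were added once the values had been seen.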

Additional observations from a re-analysis of the deposited data

Results flagged for a closer look

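By Dixon's criterion, 3 of 24 groups of 4 values held a value that stood off from the rest. About 1 in 20 independent groups would by chance. The groups here share arrays, and some are of probe sets chosen by r with Bex1, so that 3 of 24 cannot be judged by that rate. None of the 3 was a group of Bex1 signals. The median excess of tumor-high probe sets was 3.89% in non-transgenic lung 1 and -3.19% to -2.57% in the other non-transgenic lungs. The excess of 3′ over 5′ control signal of adjacent normal lung 2 was 0.39, where the rest of that group had 0.55 to 0.57. The log2 signal of 1439147_AT was 5.94 in non-transgenic lung 4 and 6.40 to 6.43 in the other non-transgenic lungs.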

How the results depend on the processing

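The difference of Bex1 between tumors and adjacent normal lung kept its direction under the 13 alternatives that could change its value and moved by less than the spread between arrays (0.77). With 1 array left out it was 5.55 to 6.31. The difference between tumors and non-transgenic lung was 6.43 to 6.76 with 1 array left out. It was 6.19 with a floor at the median of the table, which raises 3 of the 4 non-transgenic lungs. That was the 1 alternative that moved it by more than the spread between arrays (0.36). The difference between adjacent normal and non-transgenic lung stayed positive under the 13 alternatives that could change its value. With 1 array left out it was 0.31 (without adjacent normal lung 4) to 1.06 (without adjacent normal lung 1). Its adjusted p, by limma or the methods' t-test, was 0.71 to 1.0 over the alternatives, with 0 to 5 probe sets called (5 with both tumor 2 and adjacent normal lung 3 dropped). The methods' t-test at its own threshold called 1305 probe sets here, without Bex1, and 0 after adjustment. For Bex1 neither is an independent test, because adjacent normal arrays helped to choose it and only its tumors passed the filter. Nothing is read from these values for Bex1. With the replicate number as a block the differences were 5.83 and 0.78, which a block cannot move in a balanced design. As a fixed block it gave 1 called probe set between adjacent normal and non-transgenic lung, against 0 without it, and as a random mouse effect 0. Between these groups a shared number joins lungs of different mice, so that the fixed block is arbitrary there. The methods' analysis of variance was not run on Bex1, since it includes the contrast that chose it. The counts over the gene lists and the choice of 1 probe set per gene were not run, because no probe set other than that of Bex1 had a gene name here. Values near background limit the size of the ratios.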
